A study of Homo sapiens with 6 samples.

Results

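The receptors that share the common gamma chain, together with the kinases JAK1 and JAK3 that sit on their tails, were followed in NK92 cells with and without knockdown of the long non-coding RNA MIR155HG. The members were chosen by name, with earlier results of these data known. They are the 8 receptor chains IL2RA, IL2RB, IL2RG, IL4R, IL7R, IL9R, IL15RA and IL21R plus the 2 kinases. These 10 genes stood among 36601 genes of the count table, and 9 of them were among the 12263 genes with enough counts to be tested. NK92 is a human NK cell lymphoma line that depends on IL-2 for growth. Cells stably carrying a control shRNA (shCtrl) were compared with cells stably carrying an shRNA against MIR155HG (shmiR155HG), with 3 libraries in each group. Both groups had received IL-2 at 1000 U/mL together with IL-12 at 10 ng/mL for 12 h before RNA was taken, so the levels below are those of stimulated cells, and no unstimulated cells were analysed here.

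IL-2, IL-4, IL-7, IL-9, IL-15 and IL-21 all signal through receptors that contain the common gamma chain, encoded by IL2RG. In each complex a cytokine-specific chain carries JAK1 and the gamma chain carries JAK3. The paired kinases phosphorylate one another and the receptor tails, and STAT proteins dock there, are phosphorylated and move to the nucleus. In NK cells, IL-2 and IL-15 use the same signalling pair, IL2RB with IL2RG, and differ in the third chain, IL2RA or IL15RA, which adds affinity but has a short tail without a kinase.

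Knockdown of MIR155HG was accompanied by changes in both directions within this receptor family. The mRNA levels of IL2RB, IL21R and IL9R rose in shmiR155HG cells, those of IL4R and JAK3 fell, and those of IL2RG, JAK1, IL15RA and IL2RA did not pass the test. IL7R, the receptor chain for IL-7, had no count in any library. The changes that passed were small to moderate, from 26.7% below the shCtrl level for IL4R to 26.2% above it for IL2RB. Of the 9 members tested, 3 were called higher (adjusted p under 0.05, quasi-likelihood test of edgeR with Benjamini-Hochberg adjustment over all genes tested), where 7.26% of all genes tested were called higher. A further 2 members were called lower, against 8.02% of all genes, and in either direction 15.3% of all genes were called. By mean CPM the 9 members lay between the 46.1st and 99.6th percentile of genes tested. Genes of like level were not compared, so these shares are not a matched background. The median log2 fold change was 0.07 over the 9 members and 0.00097 over all genes tested. Without reference to the model, all shmiR155HG libraries lay above all shCtrl libraries for 5 of the 9 members (15.2% of all genes) and below them for 2 (15.6% of all genes), and for IL2RA and IL15RA the groups overlapped.

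The 6 libraries held between 33454786 and 39157264 counts each. The read length set in prepDE.py3, the program that made the counts, is not named in the sources used here, so a count may not equal 1 read, and halved counts were therefore among the alternatives. MIR155HG itself, the target of the shRNA, had 73, 67 and 62 counts in the shCtrl libraries and 28, 19 and 10 in the shmiR155HG libraries. Its fitted level in shmiR155HG cells was 29.2% of that in shCtrl cells (log2 fold change −1.78, SE 0.43, edgeR adjusted p = 0.0045). MIR155HG passed the filter of over 1 CPM in at least 2 libraries only through the group where it was higher. It had 1.59 to 1.88 CPM in shCtrl and 0.30 to 0.73 CPM in shmiR155HG libraries. By mean CPM it lay at the 4.64th percentile of genes tested, so its fold change rests on few counts. Nothing in the labels says that the 3 libraries of a group came from separate transductions or cultures, so p-values measure the spread between these libraries, which may be technical. Over all genes tested, 7.26% were called higher and 8.02% lower. Of 16 NK cell markers, 15 were tested, 4 rose and 3 fell. Their summed level was 4909 to 4939 CPM (normalised counts relative to library size) in shCtrl libraries and 4529 to 4693 in shmiR155HG libraries, a sum that includes the falling GZMB and the rising IL2RB, while the NK markers CD7 and TYROBP were near 0 with means of 0.33 and 1.41 CPM in shCtrl cells. Of 6 T cell markers, CD3E and TRAC were present, the others were at or near 0, and the summed level was 397.8 to 409.4 and 399.8 to 417.4 CPM. B cell, erythroid and epithelial or stromal markers were at or near 0 in both groups. Of the myeloid markers, CD14 and LYZ were near 0 and CSF1R was at 4.82 and 3.47 CPM in shCtrl and shmiR155HG cells (edgeR adjusted p = 0.235). FCGR3A, usually absent from NK92, was at 10.0 to 11.3 CPM in shCtrl and 7.70 to 8.76 CPM in shmiR155HG libraries, without overlap but without passing the test (edgeR adjusted p = 0.0605). The part of these markers in the results below was not tested. In bulk RNA, fewer cells with a transcript and less of it per cell cannot be told apart.

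IL2RB, the beta chain that IL-2 and IL-15 receptors share, was the most abundant member, at the 99.6th percentile of all genes tested by mean CPM. It was measured at 954.3, 1027 and 1036 CPM in shCtrl replicates 1, 2 and 3, and at 1256, 1264 and 1290 CPM in shmiR155HG replicates 1, 2 and 3. All 3 knockdown libraries lay above all 3 control libraries, with a gap far wider than the spread within either group. The mean went from 1006 ± 44.9 to 1270 ± 17.8 CPM (SD, n = 3), and IL2RB rose by 0.34 on the log2 scale (SE 0.032, 95% interval 0.27 to 0.40, edgeR adjusted p = 1.35e-08).

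IL2RG, the common gamma chain itself, was at 313.6, 316.0 and 310.2 CPM in shCtrl libraries and at 331.9, 322.2 and 334.0 CPM in shmiR155HG libraries. The groups did not overlap, yet the difference was only 5.14% and did not pass the threshold once adjusted (log2 fold change 0.07, 95% interval 0.0018 to 0.14, edgeR adjusted p = 0.171). The chain common to all 6 receptors thus stayed within an interval that leaves out an increase as large as that of IL2RB, whose own interval began at 0.27.

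IL2RA, the alpha chain that completes the high-affinity IL-2 receptor and is itself known as a gene induced by IL-2, was at 28.5, 29.0 and 29.2 CPM in shCtrl libraries. In shmiR155HG libraries it was at 33.4, 27.0 and 26.9 CPM. Replicate 1 of the knockdown stood above every control and the other two stood below every control, so the knockdown group straddled the controls. The log2 fold change was 0.01 (95% interval −0.18 to 0.20, edgeR adjusted p = 0.954), and without shmiR155HG replicate 1 it was −0.098.

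IL15RA, the chain that presents IL-15 to neighbouring cells, was at 46.9, 46.7 and 52.8 CPM in shCtrl libraries and at 42.1, 46.8 and 42.9 CPM in shmiR155HG libraries. Replicate 2 of the knockdown lay level with the lower controls. The log2 fold change was −0.15 (95% interval −0.30 to −0.0021, edgeR adjusted p = 0.176). With the relation between counts and GC content removed in each library, the value was −0.22 and passed the threshold (adjusted p = 0.0359, same edgeR test).

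IL21R, which pairs with the gamma chain to bind IL-21, was at 47.4, 50.7 and 53.4 CPM in shCtrl libraries and at 61.5, 65.4 and 63.9 CPM in shmiR155HG libraries. Each knockdown library exceeded each control. IL21R rose by 0.33 on the log2 scale (SE 0.066, 95% interval 0.20 to 0.47, edgeR adjusted p = 0.000637), which is 26.0% above the shCtrl level.

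IL9R, the specific chain of the IL-9 receptor, was at 73.6, 76.4 and 75.6 CPM in shCtrl libraries and at 90.1, 87.3 and 89.1 CPM in shmiR155HG libraries. The replicates of each group were close to one another and the groups did not overlap. IL9R rose by 0.24 on the log2 scale (SE 0.054, 95% interval 0.13 to 0.35, edgeR adjusted p = 0.00261), or 18.1%, which is under the 1.2-fold threshold of the study's own rule. With the GC trend removed, the value was 0.15 and the call was lost (edgeR adjusted p = 0.0558). IL9R lies in a pseudoautosomal region and has pseudogene copies elsewhere in the genome, so its reads could have been divided among near-identical loci and its level is uncertain.

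IL4R, the chain that binds IL-4 and that also serves the IL-13 receptor, moved the other way. It was at 96.4, 103.0 and 104.3 CPM in shCtrl libraries and at 73.7, 70.4 and 78.6 CPM in shmiR155HG libraries. Every knockdown library lay below every control library. The mean went from 101.2 ± 4.23 to 74.2 ± 4.15 CPM (SD, n = 3), and IL4R fell by 0.45 on the log2 scale (SE 0.057, 95% interval −0.57 to −0.33, edgeR adjusted p = 1.75e-06). IL4R was the member with the largest fitted change in size, at rank 1110 of the 12263 genes ordered by it. The study itself picked IL4R and JAK3 for measurement in these cells, so their directions here are not independent evidence.

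IL7R, the specific chain of the IL-7 receptor, had 0 counts in all 6 libraries. A count of 0 allows up to 3 counts, which is 0.0766 to 0.0897 CPM per library, and this limit covers counting error only and takes a count as 1 read. Other genes looked at here, such as SOCS6 and IL13RA1, were also listed at 0 in all libraries. Whether such zeros come from the cells or from the counting was not tested. No fold change was computed for IL7R.

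JAK1, the kinase on the cytokine-specific chains, was at 253.1, 260.7 and 254.7 CPM in shCtrl libraries and at 279.9, 268.9 and 264.7 CPM in shmiR155HG libraries. The groups did not overlap, but the 5.86% difference did not pass the threshold (log2 fold change 0.08, 95% interval 0.0069 to 0.16, edgeR adjusted p = 0.141). JAK3, the kinase on the gamma chain, was at 100.8, 94.5 and 97.2 CPM in shCtrl libraries and at 70.3, 76.0 and 77.2 CPM in shmiR155HG libraries. The lowest control stood well above the highest knockdown library. JAK3 fell by 0.39 on the log2 scale (SE 0.056, 95% interval −0.50 to −0.27, edgeR adjusted p = 1.23e-05), which left 76.4% of the shCtrl level. The intervals of the 2 kinases did not overlap.

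**Figure D1:**
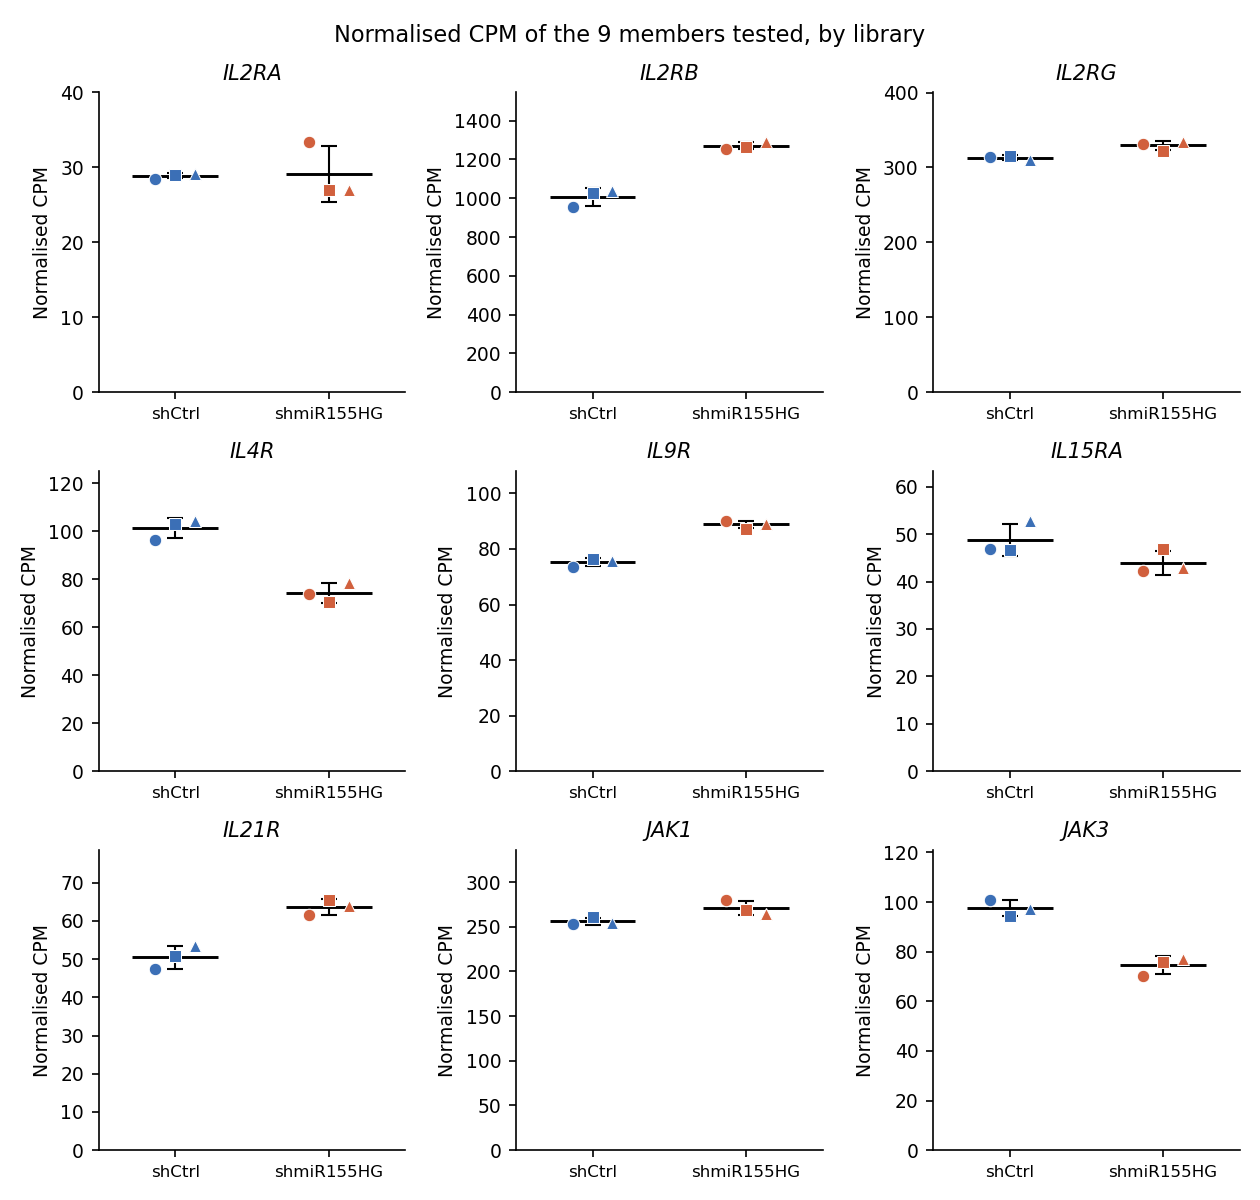
Normalised CPM (y axis, from 0) of the 9 members tested, with circles, squares and triangles for replicates 1, 2 and 3 of shCtrl (blue) and shmiR155HG (red), a horizontal line at the mean and error bars of 1 SD (n = 3). IL2RB, IL9R and IL21R stood higher and IL4R and JAK3 lower in all shmiR155HG libraries, while IL2RA and IL15RA overlapped between groups.

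**Figure D2:**
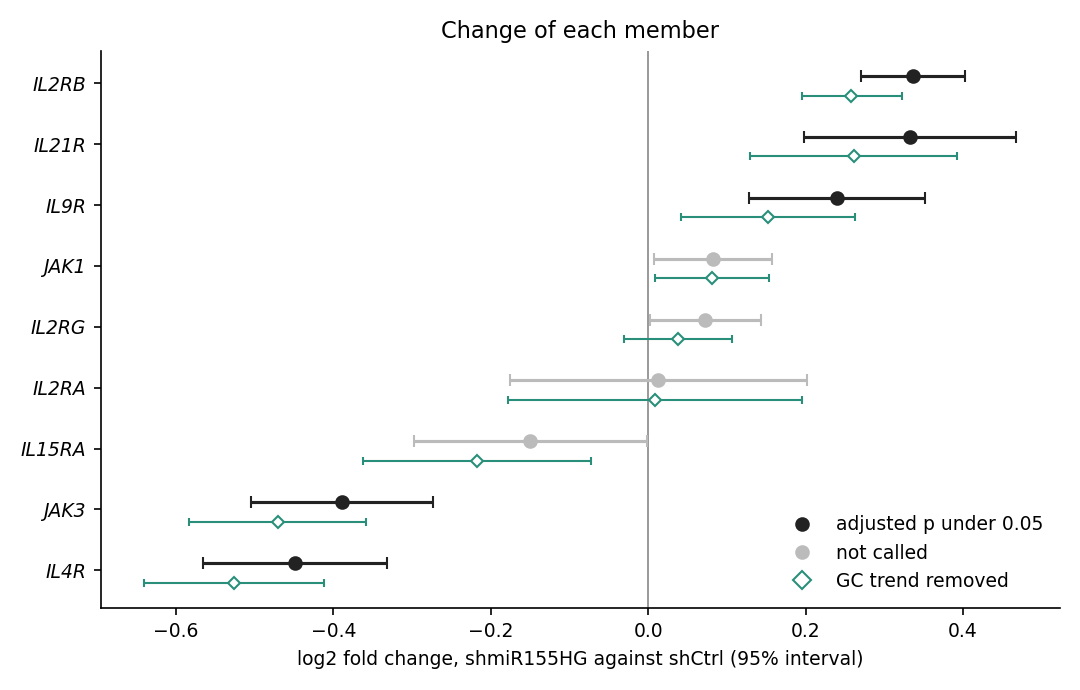
Log2 fold change of shmiR155HG against shCtrl (x axis) for the 9 members tested, with 95% intervals; filled points are from the main fit, black where the adjusted p was under 0.05 and grey where it was not, and green diamonds are after removal of the GC trend. All 9 estimates kept their sign, IL9R moved from 0.24 to 0.15 and IL15RA from −0.15 to −0.22.

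Across all genes, fold changes moved with the GC content of the transcript. With genes divided into 4 equal sets from the lowest to the highest GC content, the median log2 fold change was −0.053, −0.019, 0.02 and 0.064. Among the members, IL9R (59.7% GC), JAK3 (58.4%), IL2RB and IL4R (57.7% each) and IL21R (56.7%) belonged to the set of highest GC content, which held members of both directions. After removal of the trend, IL2RB was at 0.26 (adjusted p = 1.03e-06), IL21R at 0.26 (adjusted p = 0.00551), IL4R at −0.53 (adjusted p = 1.45e-07) and JAK3 at −0.47 (adjusted p = 6.69e-07), all from the same edgeR test. These 4 members kept their calls, the rises became smaller and the falls became larger. The count of members was then 2 higher and 3 lower, in place of 3 and 2. Over all 12216 genes of this fit, 696 were called higher and 1107 lower. Of these calls, 38.6% were higher, against 47.5% in the main fit, so a shift towards lower was not particular to the members.

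Levels of different genes were compared only after division by the length of the canonical transcript in kilobases. In shCtrl cells the order from high to low was IL2RB with 249.3 CPM per kb, IL2RG with 211.7, JAK1 with 50.3, IL9R with 36.9, IL15RA with 31.1, IL4R with 27.9, JAK3 with 18.1, IL21R with 10.4 and IL2RA with 8.97, ahead of IL7R at 0. The signalling pair for IL-2 and IL-15 thus stood far above the chains specific to other cytokines, and the ranges of neighbours in this order did not overlap. The order of the means was the same in shmiR155HG cells, where IL2RB stood at 314.8, IL2RG at 222.6, JAK1 at 53.2, IL9R at 43.6 and IL15RA at 28.1 CPM per kb. Below them stood IL4R with 20.5, JAK3 with 13.8, IL21R with 13.2 and IL2RA with 9.05. One pair of neighbours came to overlap. JAK3 ranged from 17.6 to 18.7 and IL21R from 9.80 to 11.0 CPM per kb in shCtrl libraries, but from 13.05 to 14.3 and from 12.7 to 13.5 in shmiR155HG libraries. The places of JAK1 and IL15RA depended on the transcript taken. With the longest annotated transcript, JAK1 stood at 32.9 CPM per kb in shCtrl cells, below IL9R. IL15RA then stood at 26.4 CPM per kb in shCtrl cells, below IL4R with 27.9, and their ranges overlapped. Against the other kinases of its family, JAK3 with 18.1 CPM per kb lay between TYK2 with 51.6 and JAK2 with 1.96.

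**Figure D3:**
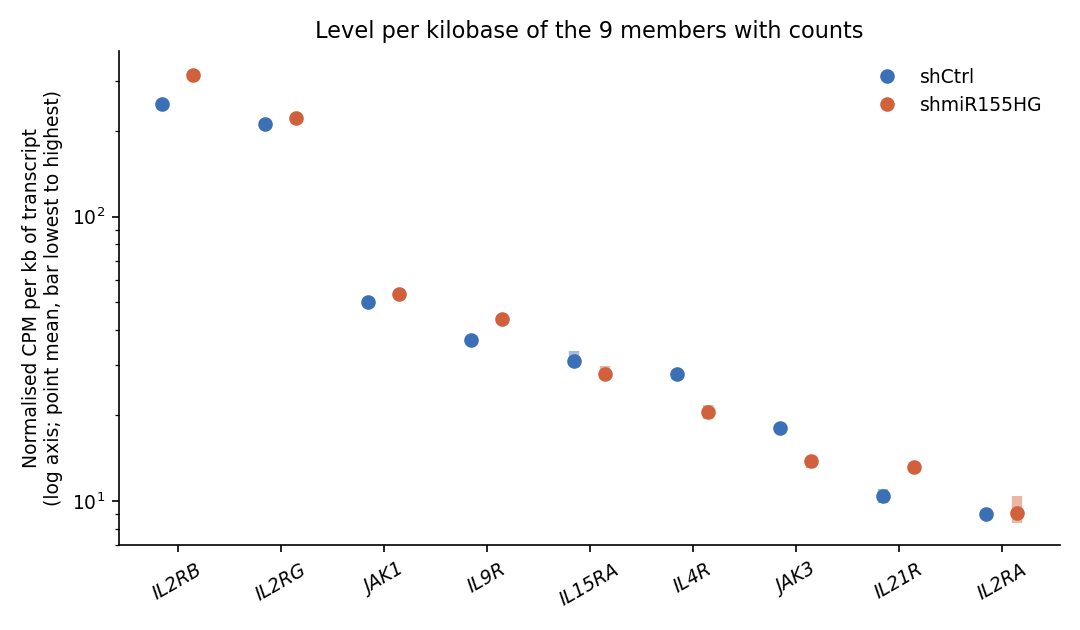
Normalised CPM per kilobase of canonical transcript (y axis, log scale) for the 9 members with counts, in shCtrl (blue) and shmiR155HG (red), where points are means of 3 libraries and shaded bars, often hidden by the points, run from the lowest to the highest library. IL2RB and IL2RG stood highest in both groups, and JAK3 and IL21R, separate in shCtrl, came level in shmiR155HG.

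The balance between chains was then taken within each library, as a ratio of counts, so that the scaling of the library cancels. Of 9 ratios named in the design, 8 could be computed, and IL7R to IL2RG could not because IL7R had no counts. For all 8 the groups did not overlap, with a two-sided exact permutation p of 0.1 each, also after adjustment over the 8, which is the smallest p that 3 against 3 libraries allow. With this test, a p under 0.05 could not be reached. The ratios share genes, so they are not independent of one another. Each sets a member called in the main fit against one that was not called, so the separation largely restates those calls. The share of other gene pairs without overlap was not computed. For single genes it was 15.2% above and 15.6% below.

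In the IL-2 receptor, the share of alpha to beta chain mRNA (IL2RA to IL2RB) was 0.0299, 0.0282 and 0.0282 in shCtrl libraries and 0.0266, 0.0214 and 0.0209 in shmiR155HG libraries, so that the knockdown mean was 79.4% of the control (difference −0.33 on the log2 scale). IL2RG to IL2RB went from 0.312 ± 0.0151 to 0.259 ± 0.00466 (SD, n = 3), or 83.2%. Per kilobase, IL2RB stood at 1.18 times IL2RG in shCtrl cells and at 1.42 times in shmiR155HG cells. IL15RA to IL2RB was 0.0491, 0.0454 and 0.0509 in shCtrl and 0.0336, 0.0370 and 0.0333 in shmiR155HG libraries, or 71.4% of control. The beta chain therefore became more abundant relative to each of its partner chains.

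Among the specific chains that compete for the gamma chain, IL21R to IL2RG went from 0.161 ± 0.0105 to 0.193 ± 0.00907 (SD, n = 3), which is 119.9% of control. IL4R to IL2RG was 0.308, 0.326 and 0.336 in shCtrl libraries and 0.222, 0.218 and 0.235 in shmiR155HG libraries, 69.7% of control and the largest of the 8 differences, at −0.52 on the log2 scale. These 2 chains thus moved apart relative to the chain they share.

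For the kinases, JAK3 to JAK1 was 0.398, 0.362 and 0.382 in shCtrl libraries and 0.251, 0.283 and 0.292 in shmiR155HG libraries. The knockdown mean was 72.2% of the control mean (difference −0.47 on the log2 scale), and per kilobase JAK1 went from 2.78 to 3.86 times JAK3. JAK3 to IL2RG, the kinase to the chain that carries it, was 0.322, 0.299 and 0.313 in shCtrl libraries and 0.212, 0.236 and 0.231 in shmiR155HG libraries, or 72.6% of control. JAK1 to IL2RB, the kinase to one of the chains that carry it, went from 0.255 ± 0.00975 to 0.214 ± 0.00887 (SD, n = 3), or 83.8%. JAK3 to IL2RG and JAK1 to IL2RB were thus lower in every library of the knockdown. JAK3 itself fell, whereas JAK1 did not fall (log2 fold change 0.08, not called) while IL2RB rose by 0.34. The lower ratio of JAK1 to IL2RB therefore does not show less JAK1.

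**Figure D4:**
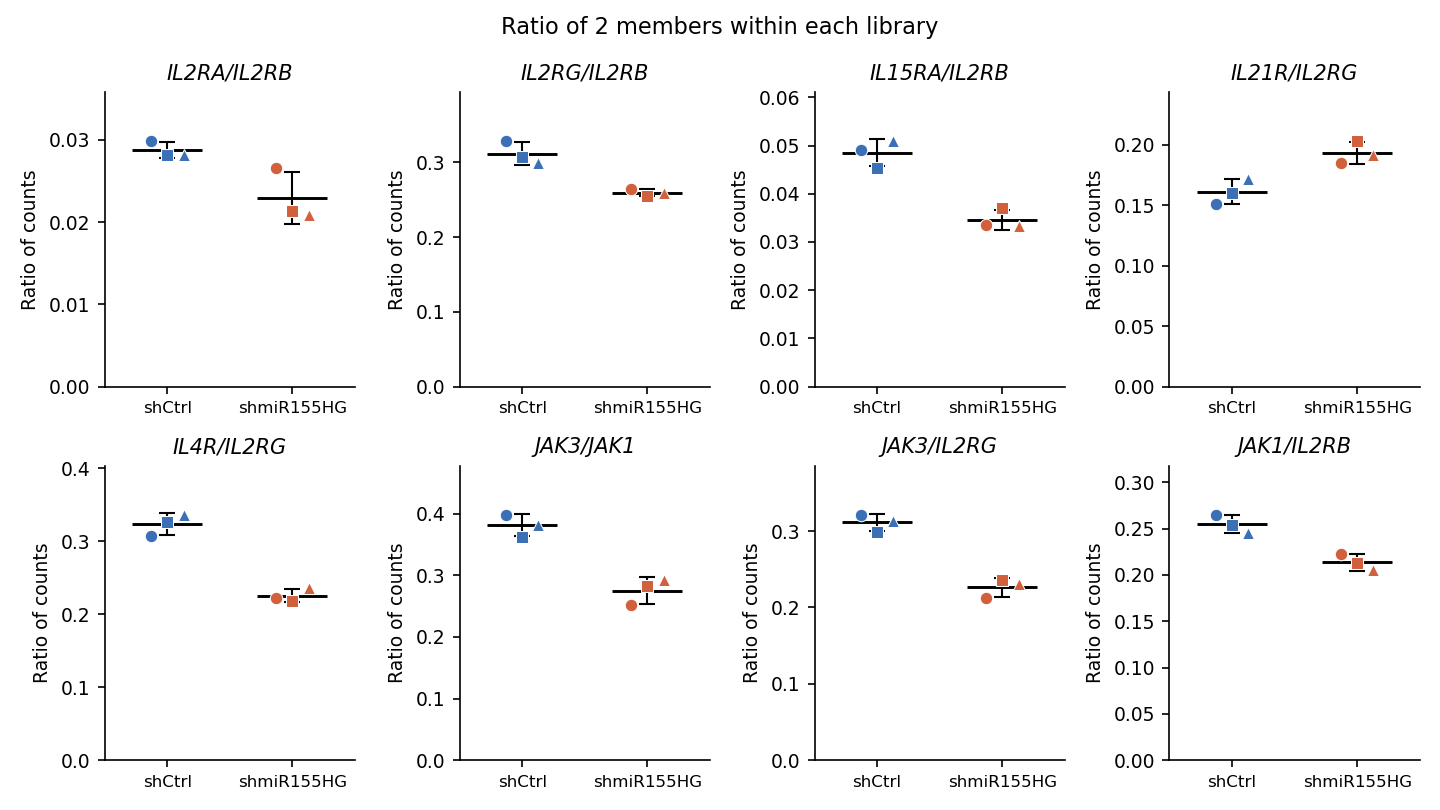
Ratio of the counts of 2 members within each library (y axes, from 0, without unit) for 8 pairs, with circles, squares and triangles for replicates 1, 2 and 3 of shCtrl (blue) and shmiR155HG (red), lines at the mean and error bars of 1 SD (n = 3). IL21R/IL2RG was higher in every shmiR155HG library and the other 7 ratios were lower.

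Several members are neighbours on the genome (hg38, GENCODE release 44). IL2RA (ENSG00000134460, chr10:6010689-6062370, minus strand) and IL15RA (ENSG00000134470, chr10:5943639-5978187, minus strand) are 32501 bp apart, and neither passed the test. IL4R (ENSG00000077238, chr16:27313668-27364778, plus strand) and IL21R (ENSG00000103522, chr16:27402174-27452042, plus strand) are 37395 bp apart and moved in opposite directions, IL4R down by 0.45 and IL21R up by 0.33 on the log2 scale. The other members lie alone. IL2RB (ENSG00000100385) is at chr22:37118666-37175118 on the minus strand, IL2RG (ENSG00000147168) at chrX:71107404-71112108 on the minus strand, and IL9R (ENSG00000124334) at chrX:155997696-156010817 on the plus strand. IL7R (ENSG00000168685) is at chr5:35852695-35879603 on the plus strand, JAK1 (ENSG00000162434) at chr1:64833223-65067754 on the minus strand and JAK3 (ENSG00000105639) at chr19:17824780-17848071 on the minus strand. Genes in the count table that overlap a member held few counts. The highest were AL137186.2 on the strand of IL15RA with 17 to 55 counts per library, RAVER2 opposite JAK1 with 4 to 24, and Z82188.2 opposite IL2RB with 7 to 21, against 37124 to 48193 counts for IL2RB. JAK3 overlaps no annotated gene. IL2RG overlaps ENSG00000285171, a protein-coding model on its own strand, and IL9R overlaps the lncRNA ENSG00000270726, so the assignment of reads there is uncertain.

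MIR155HG is the host transcript of miR-155, so the 3′UTRs of the canonical transcripts were searched for the complement of bases 2 to 8 of miR-155-5p, and likewise of miR-6756-3p. The study worked with the other arm, hsa-miR-6756-5p, which was not searched here, so the matches below are not sites of the arm that it studied. The mature sequences, from RefSeq (GRCh38.p14), are shown with those seed bases in capitals to make plain which letters were searched. hsa-miR-155-5p lies at chr21:25573983-25574006 on the plus strand and hsa-miR-6756-3p at chr11:119312950-119312969 on the minus strand.
hsa-miR-155-5p: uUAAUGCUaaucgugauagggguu
hsa-miR-6756-3p: uCCCCUUCcucccugcccag
The site of miR-155-5p, AGCATTA, was in the 3′UTR of 11.9% of 10762 genes tested that have one, and in 0 of the 10 members. The site of miR-6756-3p, GAAGGGG, was in 14.6% of those genes and in 4 of the 10 members. The 2 shares cover genes tested only, whereas the 10 members include IL7R, which was not tested. IL7R holds 1 of the 4 matches of miR-6756-3p, so the member counts and the shares are not over like sets.

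The 4 matches are shown with 8 bases on each side and the site in capitals. They are the only matches of these seeds in the 3′UTRs searched, and other parts of the transcripts were not searched. They lie at chr10:6011112-6011134 in IL2RA (minus strand), chr16:27364727-27364749 in IL4R (plus strand), chr5:35877928-35877950 in IL7R (plus strand) and chrX:156010488-156010510 in IL9R (plus strand) of hg38.
IL2RA: tcacttctGAAGGGGcaggagag
IL4R: gtggaacaGAAGGGGtggagttt
IL7R: aaactagaGAAGGGGtcataggt
IL9R: cctcctgaGAAGGGGcccctagc
Of the members with such a match, IL4R fell, IL9R rose, IL2RA was not called and IL7R had no counts, so members with the site did not move in one direction. A match is a description of letters and not evidence of binding.

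Promoter windows from RefSeq (GRCh38.p14) were found for 9 members, and IL2RB had no entry. The palindrome TTCNNNGAA, the core that STAT proteins recognise and which reads the same on both strands, was searched in the 250 bases before the start. A gene can have several windows, and the 9 members had 14. The motif was present in 6.57% of 35116 windows, and 8.09% of 27305 genes held it in at least 1 window. Among the members it was in 1 of the 4 windows of IL15RA, where it began 127 bases before that window's start site, and in no window of the others. It is shown with 10 bases on each side, at chr10:5978155-5978183 on the minus strand, with the motif in capitals.
IL15RA: gcagcaggaaTTCGGCGAAgtggcggagc
IL15RA did not pass the test in the main fit, and the members that rose or fell and had a window held no such match there.

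The other genes of the pathway came from lists of 81 genes, of which 66 were tested. Of these, 12 rose, 12 fell and 42 did not pass, where 7.26% of all genes tested were called higher and 8.02% lower. The median log2 fold change of the 66 genes was 0.0073. These calls are from the main fit, and their values with the GC trend removed are not given here. Several of the changes are smaller than the rise of IL9R by 0.24, which lost its call under that correction. The 8 ligands were nearly silent. 5 of them were listed at 0 in all libraries, and the only one tested, IL15, was at 5.78 ± 1.10 CPM in shCtrl and 5.50 ± 1.12 CPM in shmiR155HG cells (SD, n = 3) and did not pass (edgeR adjusted p = 0.876). Of the partner chains IL13RA1, IL13RA2 and CRLF2, which bind the related cytokines IL-13 and TSLP, none had enough counts to be tested, and IL13RA1, the partner of IL4R in the IL-13 receptor, was listed at 0 in all libraries.

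Of the other kinases of the JAK family, TYK2, which serves the receptors of IL-12 and type I interferon, fell by 0.15 on the log2 scale (SE 0.042, edgeR adjusted p = 0.0163), and JAK2 was at 0.20 without passing (edgeR adjusted p = 0.324). Among the STAT genes described here, STAT5A, the main STAT of the IL-2 and IL-15 receptors together with STAT5B, rose by 0.26 (edgeR adjusted p = 0.000551), with 112.6, 105.9 and 117.2 CPM in shCtrl libraries and 135.9, 139.9 and 125.9 CPM in shmiR155HG libraries. STAT5A and STAT5B are adjacent paralogs, so their reads could have been mixed. STAT2, known for interferon signalling, fell by 0.37 (edgeR adjusted p = 0.0138). STAT3, STAT4, STAT5B and STAT6 had log2 fold changes of 0.02, −0.03, 0.0076 and −0.0065, and none passed.

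Of 21 negative regulators, 18 were tested, 3 rose (CISH by 0.11, SOCS4 by 0.14 and SOCS7 by 0.25 on the log2 scale) and 3 fell (PTPN1 by 0.21, PTPRC by 0.25 and USP18 by 0.42). CISH encodes an inhibitor that STAT5 induces and that acts on these receptors, and PTPN1 and PTPRC are tyrosine phosphatases. The groups overlapped for CISH, with 580.9 CPM in shCtrl replicate 3 and 577.4 CPM in shmiR155HG replicate 1. Of 17 adaptor and PI3K genes, 16 were tested, and LCK, a Src family kinase, was the one that passed, with a rise of 0.19 (edgeR adjusted p = 0.00306). The 5 tested genes of receptor traffic and shedding did not pass. Of 19 genes known as targets of these cytokines, 8 rose (MCL1, PIM1, PIM2, PIM3, CCND2, MYC, CISH and FASLG). A further 6 fell (CCND3, OSM, LTA, GZMB, PRF1 and IFNG), with a median of 0.11 for the list. Over all genes tested, 7.26% were called higher and 8.02% lower. By mean CPM these targets ran from the 19.4th percentile (BCL6) to the 99.4th (PIM1), and genes of like level were not compared for any list. Those that rose include the survival gene MCL1 (by 0.16), the growth regulator MYC (by 0.33), the D-type cyclin CCND2 (by 0.17) and the serine/threonine kinases PIM1 (by 0.17) and PIM2 (by 0.49). Those that fell include the pore-forming perforin gene PRF1 (by 0.20), the interferon gamma gene IFNG (by 0.41) and another D-type cyclin, CCND3 (by 0.35). Some of those that fell (GZMB, IFNG and CCND3) were picked by the study for these cells, so the count of falls is not independent evidence. GZMB, which encodes granzyme B, was the only called gene of the lists with an absolute log2 fold change over 0.5, at −1.14 (SE 0.036, edgeR adjusted p = 7.03e-19).

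**Figure D5:**
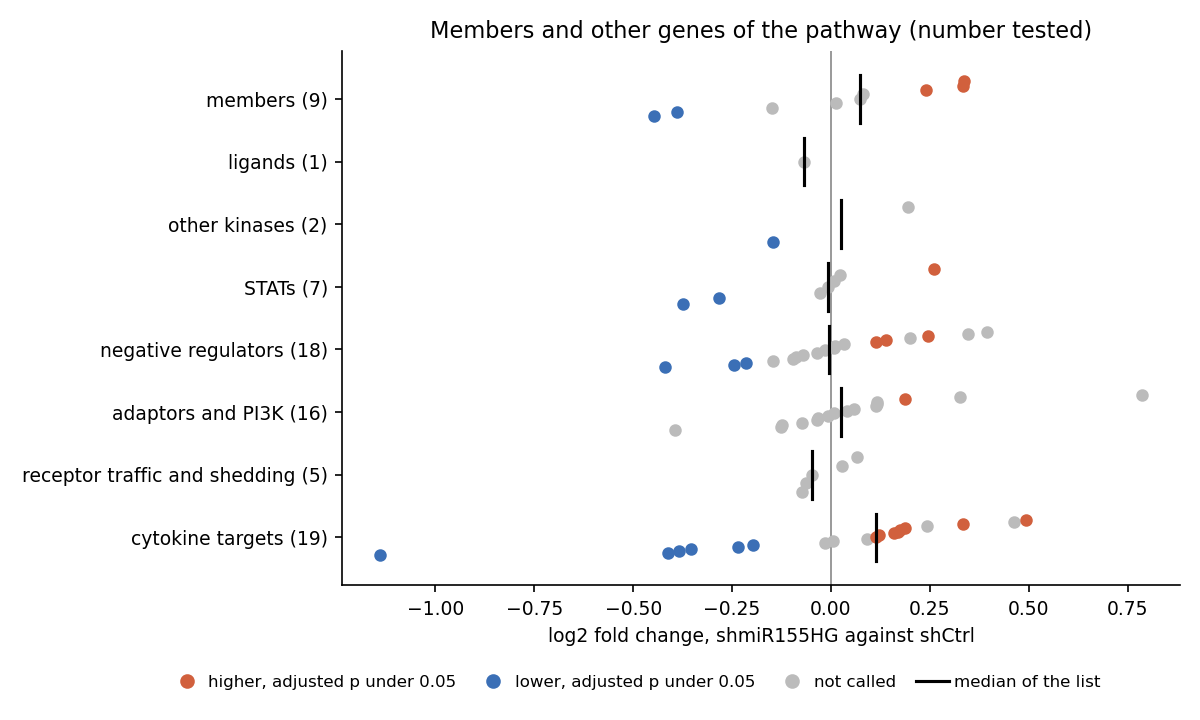
Log2 fold change of shmiR155HG against shCtrl (x axis) for the members and for the other genes of the pathway by list (y axis, with the number tested), red where higher and blue where lower at an adjusted p under 0.05, grey where not called, with a black bar at the median of the list. Medians lay close to 0, from −0.069 for the single ligand to 0.11 for cytokine targets, and most lists held genes on both sides.

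The genes whose log2 normalised CPM followed JAK3 most closely were found among the 8789 genes that averaged 10 CPM or more. They were CYBC1 (Pearson correlation 0.998), WARS (0.997) and VPS29 (0.994), each over 6 libraries that share the division into 2 groups. All 3 were lower in shmiR155HG cells, by 0.25, 0.14 and 0.26 on the log2 scale.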

How the data were processed

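Poly(A) RNA of NK92 cells was sequenced as pairs of 150 bases. The authors used HISAT2 with hg38 for alignment, obtained counts with StringTie under its -e parameter and merged them with prepDE.py3. They deposited whole-number counts without normalization. The annotation release, strandedness and tool versions are not given in the sources used here, so overlapping and antisense genes cannot be separated by strand. Titles gave the groups, because in shmiR155HG replicates 2 and 3 the treatment label spells the gene with another number.

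Genes with over 1 CPM in at least 2 libraries were tested with edgeR 4.0.16 (TMM, robust quasi-likelihood test, Benjamini-Hochberg adjustment, threshold 0.05) in R 4.3.3, with all 6 libraries and no covariate. The common biological coefficient of variation was 8.71%. CPM values were normalised with TMM factors, and levels per kilobase used canonical transcripts of GENCODE release 44, matched for 99.6% of genes tested. Ratios were compared by exact permutation (SciPy 1.17.1). The text names all members, MIR155HG, STAT genes and other kinases, called list genes with an absolute log2 fold change over 0.5, overlapping genes and 3 genes most like JAK3. Other list genes are named after their values were seen, and a withheld item is not reported here. Members and lists were chosen with earlier results of these data known. Scripts were tested on simulated data. Alternatives were other scalings (DESeq2 1.42.0, total counts), filters, halved counts, a replicate block, other tests (exact, DESeq2, limma-voom with limma 3.58.1, the study's rule), GC correction and each library left out.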

Additional observations from a re-analysis of the deposited data

How the results depend on the processing

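Over 17 settings, IL2RB (0.26 to 0.36 on the log2 scale), IL21R (0.26 to 0.38), IL4R (−0.53 to −0.41), JAK3 (−0.47 to −0.35) and MIR155HG (−2.13 to −1.52) kept direction and call. IL9R ranged from 0.15 to 0.25 and lost its call with the GC trend removed and under the study's rule. IL2RA, with 1 library left out, ranged from −0.098 (reversed, without shmiR155HG replicate 1) to 0.067. Since the groups did not overlap in any of the 8 ratios, leaving out a library could not turn their sign. Over all genes, the study's rule (edgeR exact test, unadjusted P under 0.01, fold change over 1.2) called 552 higher and 467 lower here. The study itself printed other counts, and the reason for the difference was not tested. GC correction gave 696 higher and 1107 lower. Leaving out 1 library gave 580 to 891 higher (580 without shmiR155HG replicate 2) and 674 to 917 lower. With the replicate number as a block, 829 genes were higher and 909 lower, and 3 members higher and 2 lower. Same-numbered libraries did not deviate together over all genes tested (correlations −0.013, 0.012 and 0.02). Nothing in the labels says that the numbers pair libraries, and a correlation over all genes could not settle whether they do. With 3 libraries a group, changes such as those of IL2RG and JAK1, about 5 to 6%, lay at the edge of what the spread allowed to be called.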
